A study of Homo sapiens with 39 samples.

Results

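The subject here is how the effect of zinc sulphate (ZnSO4) on messenger RNA differed after 24 h and after 6 h in JJN3, a human multiple myeloma (malignant plasma cell) line. The effect at a time is the level in ZnSO4 relative to the level in DMSO, the solvent control, on the log2 scale, and the quantity examined is the effect at 24 h minus the effect at 6 h. By the labels this draws on 12 of the 39 libraries in the study, 3 in each of 4 groups: ZnSO4 for 24 h, DMSO for 24 h, ZnSO4 for 6 h and DMSO for 6 h. The other 27 libraries (cells at the start, cells in the KDM6 demethylase inhibitor GSK-J4, and ZnSO4 or DMSO at 1 and 3 h) entered the shared estimate of spread. All groups were JJN3 cells in RPMI medium with 10% fetal calf serum, measured by RNA sequencing of bulk cultures. The sources used here do not give the zinc dose or say whether the ZnSO4 cultures also received DMSO, and a single line served as the model.

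Free zinc in a cell is held low by metallothioneins, small cysteine-rich proteins that bind it, by SLC30 transporters that move it out of the cytosol, and by SLC39 transporters that bring it in. The transcription factor MTF1 senses zinc and binds metal response elements in promoters of metallothionein genes and of SLC30A1. An excess of metal ions also disturbs protein folding and thiol chemistry, which act through the heat shock factor HSF1 and through NRF2 (gene NFE2L2), the activator of antioxidant genes such as HMOX1. Plasma cells secrete large amounts of antibody and depend on chaperones and on survival proteins such as MCL1.

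Promoter windows of 4 of the genes on which the results turn are shown first, from 250 bases before to 50 bases after the RefSeq transcription start on GRCh38.p14, with RefSeq's sequence. The build served for promoters only, since the counts were made on hg19. Each window was taken from those that hold the element searched for, and windows of HMOX1, SGK1, MCL1 and SKI are not shown. In MT1X, a metallothionein gene at chr16:56682220-56682519 on the plus strand, capitals mark the core of the metal response element, searched as TGCACNC or TGCGCNC on both strands.

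MT1X: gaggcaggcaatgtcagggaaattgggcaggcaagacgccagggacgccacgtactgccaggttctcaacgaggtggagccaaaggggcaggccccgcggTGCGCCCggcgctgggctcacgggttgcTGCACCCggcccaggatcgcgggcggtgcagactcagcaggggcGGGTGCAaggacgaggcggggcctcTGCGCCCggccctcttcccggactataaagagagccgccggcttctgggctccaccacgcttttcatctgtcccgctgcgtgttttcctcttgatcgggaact

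The MT1X window holds 4 such matches, between 150 and 53 bases before the start, whereas 29.6% of all 35116 promoter windows hold at least 1 (12.1% hold TGCACNC and 20% hold TGCGCNC). The other 3 windows belong to chaperone genes: SERPINH1 at chr11:75562003-75562302 on the plus strand, HSP90AB1 at chr6:44247693-44247992 on the plus strand, and HSPA8 at chr11:123062087-123062386 on the minus strand. Here capitals mark a pair of inverted heat shock units, searched as GAANNTTC or TTCNNGAA. Both forms read the same on either strand, and where matches overlap they form a single run of capitals.

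SERPINH1: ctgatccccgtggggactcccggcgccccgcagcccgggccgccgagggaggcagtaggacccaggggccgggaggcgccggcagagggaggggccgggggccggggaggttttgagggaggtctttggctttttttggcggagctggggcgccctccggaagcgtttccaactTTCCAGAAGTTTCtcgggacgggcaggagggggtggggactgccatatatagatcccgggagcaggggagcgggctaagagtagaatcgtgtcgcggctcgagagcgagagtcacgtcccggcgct

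HSP90AB1: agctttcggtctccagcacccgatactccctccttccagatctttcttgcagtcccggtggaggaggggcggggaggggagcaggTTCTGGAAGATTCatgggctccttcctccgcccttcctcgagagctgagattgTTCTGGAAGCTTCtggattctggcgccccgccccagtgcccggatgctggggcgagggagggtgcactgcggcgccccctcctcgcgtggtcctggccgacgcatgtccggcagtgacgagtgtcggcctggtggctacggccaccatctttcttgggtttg

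HSPA8: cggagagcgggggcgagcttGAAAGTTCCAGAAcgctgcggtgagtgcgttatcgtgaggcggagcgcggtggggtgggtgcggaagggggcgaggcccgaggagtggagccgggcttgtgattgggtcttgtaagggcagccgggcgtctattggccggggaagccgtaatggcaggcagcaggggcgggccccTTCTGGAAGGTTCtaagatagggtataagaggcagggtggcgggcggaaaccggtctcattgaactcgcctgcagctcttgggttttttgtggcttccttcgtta

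SERPINH1 has 2 matches in 1 run, and HSP90AB1 and HSPA8 have 4 matches in 2 runs each. Of all windows, 13.5% hold at least 1 such pair (6.77% hold GAANNTTC and 7.74% hold TTCNNGAA). For SERPINH1 the window shown is the 1 of 2 in the table with a match, and for HSP90AB1 it is the 1 of 3. Among the genes whose effect differed between the times, 44 matched a RefSeq promoter by symbol. Of their 79 windows, 33 (41.8%) held the metal response core and 15 (19%) the heat shock pair. The shares among all windows, 29.6% and 13.5%, include genes not tested here, and a gene can have several windows. Whether the called genes differ in this from the other tested genes was not tested. A match describes these letters and is not evidence of binding.

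The 12 libraries held 4403333 to 8798556 counts (5840647.5 at the median), and 14460 genes had enough counts to be tested. Levels are given as CPM, counts relative to the scaled library total, in the order of replicates 1, 2 and 3, and their spread as SD with n = 3 libraries per group. Log2 values carry their standard error, and every adjusted p is from edgeR's quasi-likelihood test with Benjamini-Hochberg adjustment over all 14460 genes; a gene counts as called at adjusted p under 0.05. Because the labels do not state separate cultures, a p-value here reflects the spread among libraries alone, some or all of which may be technical. Replicate 3 of DMSO at 6 h stood apart from its sisters (a chi-square per gene of 3.05 against each of them, beside 1.456 between the sisters), so values without it are given where they matter. Less far apart were replicate 2 of ZnSO4 at 6 h (2.581 and 2.54, beside 1.823) and replicate 3 of DMSO at 24 h (2.279 and 2.234, beside 1.504). Of the 17 markers of other cell types, such as T cells, monocytes and fibroblasts, 9 were abundant enough to test, and CD3D was at 0 throughout. Of the 9, 0 were called for zinc (9.56% of all genes at 24 h, 9.32% at 6 h) or for the difference (0.408%). With so few genes, 0 calls does not set them apart. With time, 5 rose in ZnSO4 (28.4% of all genes), and 4 rose and 1 fell in DMSO (31% and 31.8%). The summed level of the 17 markers was 123.3 to 127.5 CPM in ZnSO4 and 95.77 to 134.8 CPM in DMSO at 24 h, against 64.34 to 73.92 CPM in ZnSO4 and 75.58 to 84.98 CPM in DMSO at 6 h. The 18 plasma cell genes summed to 14140 to 14570 CPM and 14580 to 15060 CPM in ZnSO4 and DMSO at 24 h, and to 11990 to 12690 CPM and 12620 to 14480 CPM at 6 h. Mitochondrially encoded genes took 5.212 to 5.542% of counts in ZnSO4 and 4.753 to 5.194% in DMSO at 24 h, against 3.703 to 3.836% in ZnSO4 and 3.471 to 3.545% in DMSO at 6 h.

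Metallothionein genes and SLC30A1 were raised by zinc at both times. A small set of genes, the metallothionein gene MT1X among them, responded differently at 24 h and at 6 h. HMOX1, the haem oxygenase gene, was raised much less at 24 h than at 6 h, and the chaperone gene SERPINH1 and the kinase gene SGK1 were not called at 24 h and raised at 6 h. In the other direction, the survival gene MCL1 and the corepressor gene SKI were raised at 24 h and not called at 6 h, whereas the chaperone gene HSPA8 was higher than in DMSO at 24 h and lower at 6 h. In all, 59 of 14460 genes (0.408%) had a called difference, 43 lower at 24 h (0.297%) and 16 higher (0.111%), of which 6 (0.0415%) and 2 (0.0138%) differed at least 2-fold. Their differences ran from −1.55 to −0.28 and from 0.28 to 1.30 on the log2 scale. Bulk RNA cannot tell fewer cells of a kind from less RNA per cell.

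**Figure D1:**
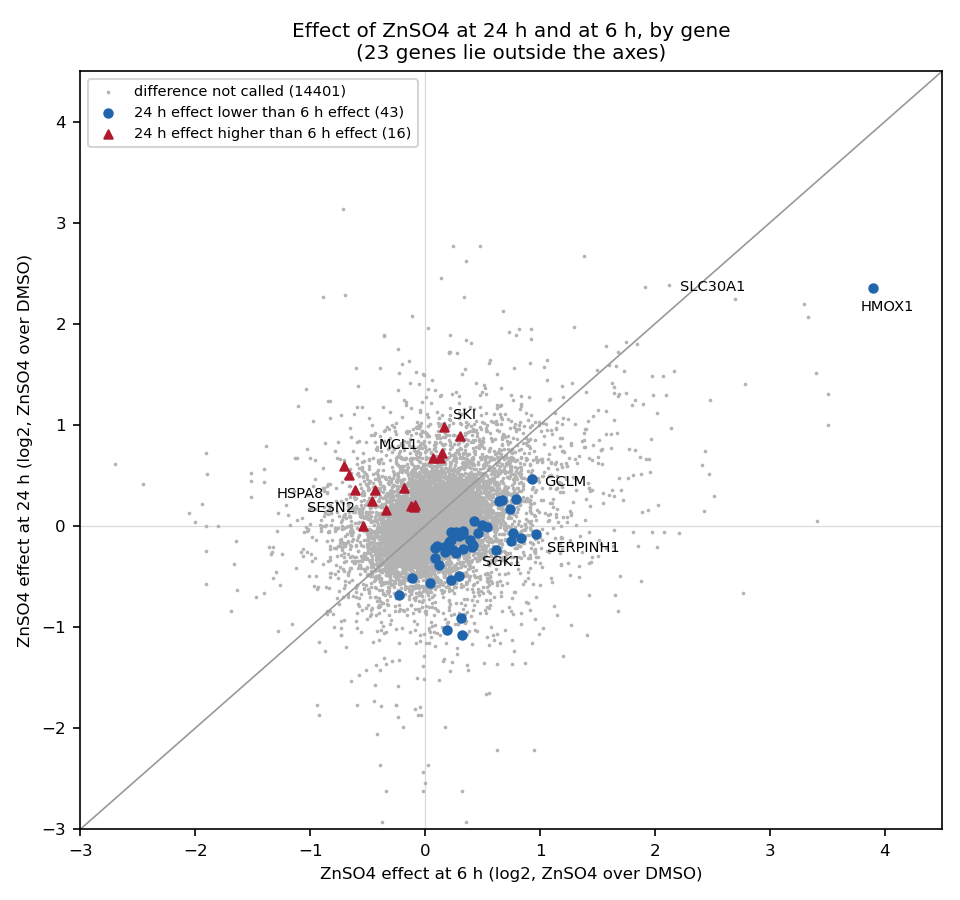
Each point is a gene, with the log2 effect of ZnSO4 over DMSO at 6 h across and at 24 h up; the diagonal marks equal effects, and 23 genes lie outside the axes. The 43 genes with a lower effect at 24 h (blue circles) lie below the diagonal and the 16 with a higher effect (red triangles) above it. HMOX1 lies far to the right, and MT1X is among those outside the axes.

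The single-time comparisons called many more genes. At 24 h, 575 genes were higher in ZnSO4 (3.98%) and 807 lower (5.58%), 1382 in all (9.56%). At 6 h, 696 were higher (4.81%) and 652 lower (4.51%), 1348 in all (9.32%). Called at both times were 559 genes, 40.4% of the 24 h calls and 41.5% of the 6 h calls, 552 of them in the same direction. A further 789 genes were called at 6 h only, but the difference itself was called for just 23 of these, and for 21 of the 823 called at 24 h only. The median standard error was 0.18 for the difference, beside 0.13 for the effect at 24 h and 0.12 at 6 h. At unadjusted p under 0.05 the difference was past the threshold for 1295 genes (8.96%). Of the 43 genes with a lower effect at 24 h, 41 had an effect above 0 at 6 h and 34 had an effect below 0 at 24 h. Of the 16 with a higher effect, 11 had an effect below 0 at 6 h and 15 an effect above 0 at 24 h. Choosing genes by the difference favours such signs, so these counts describe the chosen genes and are no separate result. Over all genes, 48.5% had an effect below 0 at 6 h and 50.5% at 24 h.

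More genes differed between the times than between ZnSO4 and DMSO. Between 24 h and 6 h, 8665 genes (59.9%; 28.4% higher, 31.5% lower) differed within ZnSO4 and 9071 (62.7%; 31% higher, 31.8% lower) within DMSO. Culture time cannot be told apart from anything else that set the 24 h harvest apart. A difference of effects can thus come with a change in ZnSO4, in DMSO, or in both, and the levels in the 4 groups are given for that reason. Of the 43 genes with a lower effect at 24 h, 17 rose with time in both arms, 9 fell in both, 8 fell in ZnSO4 alone, 5 fell in ZnSO4 and rose in DMSO, and 4 rose in DMSO alone. Of the 16 with a higher effect, 7 rose in both arms, 8 fell in both and 1 fell in DMSO alone. Among the rest of the 14460 genes tested, 3600 rose in both arms and 3909 fell in both. A further 616 of them fell in ZnSO4 alone, 841 rose in DMSO alone and 665 fell in DMSO alone, and 3 fell in ZnSO4 and rose in DMSO. Choosing genes by the difference favours those in which the arms part. "Alone" refers here to the calls, not to a tested difference.

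Among the genes of zinc storage, MT1X was the only metallothionein of 9 tested whose effect was called different, and the level in DMSO moved more than the level in ZnSO4. Only 5 of the 9 had more than 3 counts in each DMSO group, and in the others the difference could hardly be estimated. MT1X (ENSG00000187193), whose promoter is shown above, had 1187, 1320 and 1513 CPM in ZnSO4 at 24 h, against 16.6, 18.5 and 19.7 CPM in DMSO. At 6 h it had 1150, 1419 and 1291 CPM in ZnSO4, against 6.91, 7.92 and 6.49 CPM in DMSO. The ZnSO4 libraries lay far above the DMSO libraries at both times, those of ZnSO4 at 24 and 6 h overlapped each other, and all DMSO libraries of 24 h lay above those of 6 h. The effect was 73.6-fold at 24 h and 181-fold at 6 h, a difference of −1.30 ± 0.22 (adjusted p = 0.00015). Within ZnSO4 the 24 h level differed from the 6 h level by 0.06 ± 0.08 (adjusted p = 0.51), and within DMSO by 1.36 ± 0.20 (adjusted p = 2.5e-08).

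All 9 metallothioneins tested rose with ZnSO4 at both times (3.98% of all genes rose at 24 h and 4.81% at 6 h). MT1G was the most abundant by count, with 5373 ± 466 CPM in ZnSO4 and 6.39 ± 1.78 CPM in DMSO at 24 h, against 3121 ± 323 and 3.12 ± 2.78 CPM at 6 h. Its level in ZnSO4 was higher at 24 h than at 6 h (0.78 ± 0.13, adjusted p = 4e-07), and its effect differed by −0.22 ± 0.55 (adjusted p = 0.95). MT2A had 1045 ± 109 CPM in ZnSO4 and 4.52 ± 2.25 CPM in DMSO at 24 h, and 949.5 ± 118 and 1.55 ± 0.51 CPM at 6 h. The difference of effects of MT2A, −1.36 ± 0.45, was not called (adjusted p = 0.23), and its level in DMSO rose with time (2.84-fold, adjusted p = 0.0021). MT1H stood at 651.7 ± 33.6 and 596.3 ± 61.3 CPM in ZnSO4 at 24 and 6 h and MT1E at 140 ± 17 and 129 ± 23.4 CPM, each with under 1 CPM on average in DMSO. Over the 5 members with more than 3 counts in each DMSO group the median difference was −0.58, beside −0.02 over all genes.

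In the other metallothioneins DMSO was at or near 0, so only the size of the effects is bounded. MT1M, with 330 and 358 counts in ZnSO4 at 24 and 6 h and 0 in DMSO, was at least 177-fold and at least 139-fold higher, taking 3 counts over the group as the floor. MT1B was at least 23-fold higher at 24 h and at least 16.3-fold at 6 h, and MT1L at least 16.1-fold and at least 6.58-fold. MT1F had 1 count in DMSO at each time and 409 and 427 in ZnSO4, ratios of 657 (95% counting interval 117 to 26000) and 496 (88.6 to 19600); such intervals cover counting error only. MT1A, with 7 and 19 counts in ZnSO4 and 0 in DMSO, did not pass the filter. Near-identical copies share reads, so the split between metallothionein genes is uncertain.

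SLC30A1 (ENSG00000170385), the main zinc exporter of the cell surface, rose at both times, on levels that were higher at 24 h in both arms. It had 560.6, 599 and 627.5 CPM in ZnSO4 at 24 h, against 117, 109.9 and 115 CPM in DMSO, and 249, 265 and 293 CPM in ZnSO4 at 6 h, against 58.8, 53.2 and 72.95 CPM in DMSO. No library of either ZnSO4 group overlapped its DMSO group. The effect was 5.23-fold at 24 h and 4.37-fold at 6 h, and the difference of 0.26 ± 0.10 was not called (adjusted p = 0.38). It was 0.12 once replicate 3 of DMSO at 6 h was left out. Of 7 SLC30 genes tested 0 had a called difference (0.408% of all genes), and SLC30A9 rose at 6 h. SLC30A2, with 3 or fewer counts in a DMSO group, also rose at both times. Its level in ZnSO4 was lower at 24 h than at 6 h by the call within that arm. The difference for SLC30A2, −4.16 ± 1.90, was not called (adjusted p = 0.5), and its size is uncertain with so few counts in DMSO. Of 11 SLC39 importers tested 0 had a called difference (0.408% of all genes), and 3 fell at 24 h and 4 at 6 h (5.58% and 4.51% of all genes fell), among them SLC39A10 at 4.72 ± 0.26 CPM in ZnSO4 against 9.72 ± 0.44 CPM in DMSO at 24 h, and 11.3 ± 0.52 against 27.5 ± 4.03 CPM at 6 h. MTF1 itself had 36.5 ± 2.39 CPM in ZnSO4 and 36.1 ± 1.86 CPM in DMSO at 24 h, and 43.5 ± 4.86 and 45.5 ± 5.77 CPM at 6 h, with no call for zinc at either time.

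Of the NRF2 targets, HMOX1 showed the largest difference of any gene called. HMOX1 (ENSG00000100292), which degrades haem, had 529, 554 and 601.5 CPM in ZnSO4 at 24 h, against 110.4, 103 and 117 CPM in DMSO. At 6 h it had 928, 1334 and 1242 CPM in ZnSO4, against 81.6, 75.8 and 76.6 CPM in DMSO. Every ZnSO4 library of 24 h lay below every ZnSO4 library of 6 h, and every DMSO library of 24 h above those of 6 h. The effect was 5.12-fold at 24 h and 14.9-fold at 6 h, a difference of −1.55 ± 0.16 (adjusted p = 9.9e-10). Within ZnSO4 the level fell with time (−1.06 ± 0.10, adjusted p = 5.3e-14), and within DMSO it rose (0.49 ± 0.13, adjusted p = 0.00068).

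The other members called were GCLM and SQSTM1, both still raised at 24 h, but less. GCLM (ENSG00000023909), the modifier subunit of the enzyme that starts glutathione synthesis, had 102 ± 10.4 CPM in ZnSO4 and 74.1 ± 2.96 CPM in DMSO at 24 h, and 242 ± 12.9 and 127 ± 9.71 CPM at 6 h. Its difference was −0.47 ± 0.10 (adjusted p = 0.007), and this call was lost without replicate 1 of ZnSO4 at 24 h (−0.39, adjusted p = 0.084). SQSTM1 (ENSG00000161011), the autophagy receptor p62, had 1419 ± 29.8 CPM in ZnSO4 and 1189 ± 20.5 CPM in DMSO at 24 h, and 1158 ± 81.5 and 728 ± 5.99 CPM at 6 h. The effects on SQSTM1 differed by −0.42 ± 0.07 (adjusted p = 0.00038). Its mean in ZnSO4 was higher at 24 h than at 6 h, and its mean in DMSO rose more. Of 24 targets tested 0 had a higher and 3 a lower effect at 24 h (0.111% and 0.297% over all genes); 16 rose with ZnSO4 at 24 h (3.98% of all genes) and 14 at 6 h (4.81%), and 0 fell at either time (5.58% and 4.51%). The median difference of the list was −0.03. SLC7A11, the cystine importer gene, went the other way without a call: it had 51.4 ± 0.62 CPM in ZnSO4 and 33.7 ± 3.53 CPM in DMSO at 24 h, and 19.2 ± 0.83 and 19.1 ± 1.80 CPM at 6 h. The difference for SLC7A11, 0.61 ± 0.16, was not called (adjusted p = 0.089). It was past the threshold with DESeq2 (0.62, adjusted p = 0.0493) and when replicate 3 of DMSO at 24 h was left out (0.70, adjusted p = 0.0421). NFE2L2 had 35.1 ± 2.55 CPM in ZnSO4 and 31.6 ± 2.43 CPM in DMSO at 24 h, and 101 ± 4.42 and 92.6 ± 6.54 CPM at 6 h; zinc was not called at either time.

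**Figure D2:**
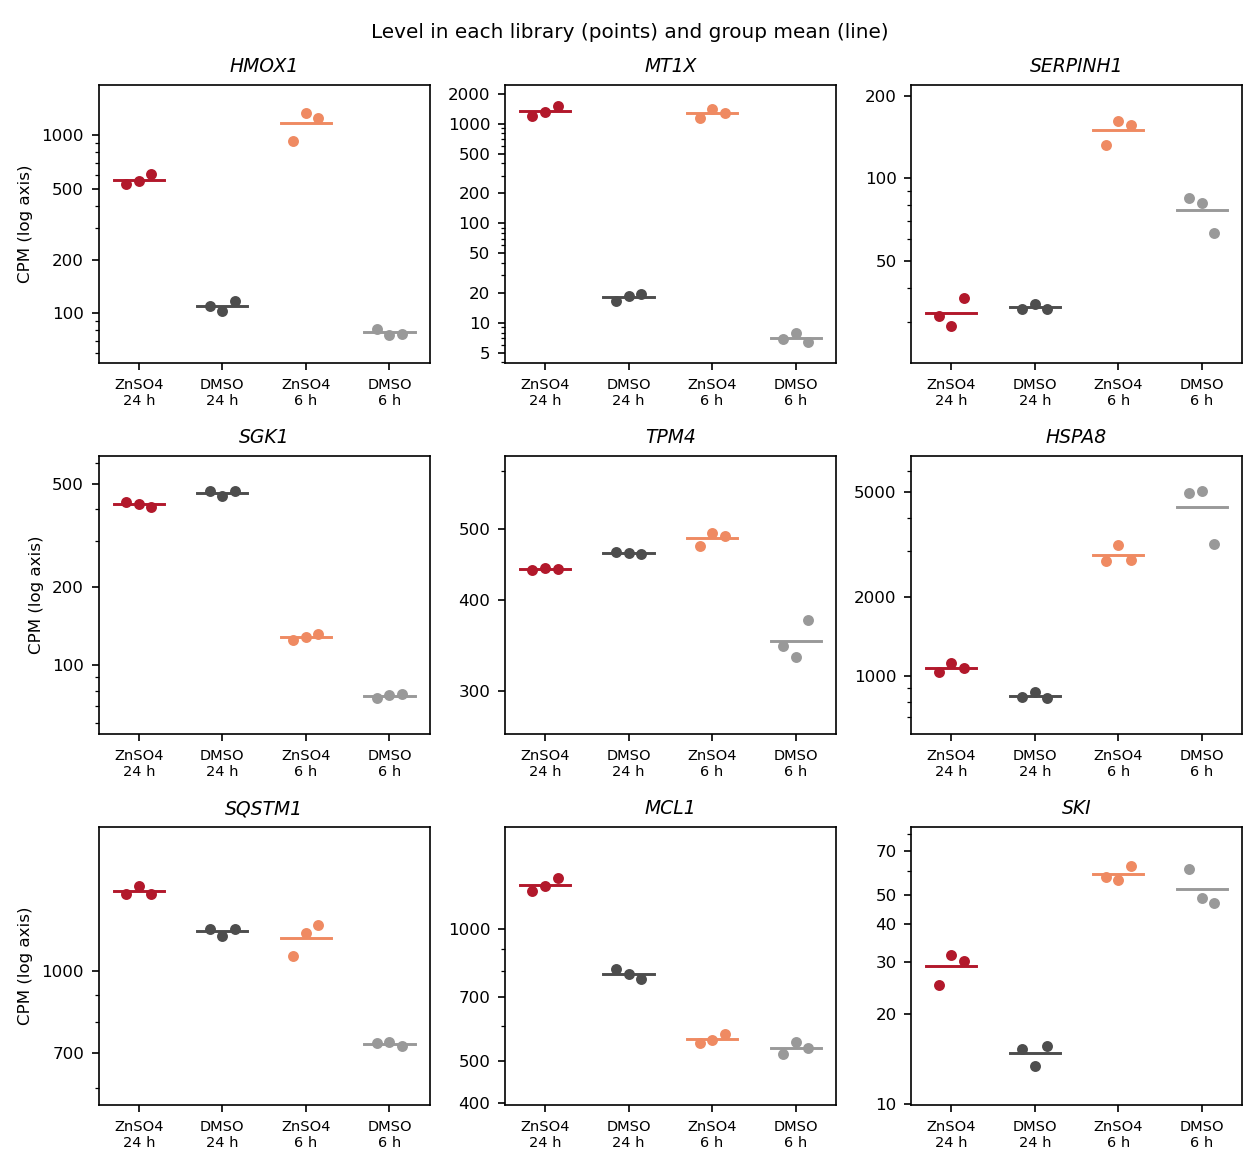
Level in CPM (log axis) of 9 genes in each library (points) of ZnSO4 and DMSO at 24 h and ZnSO4 and DMSO at 6 h, with the group mean as a line. HMOX1 in ZnSO4 is lower at 24 h (529 to 601.5 CPM) than at 6 h (928 to 1334 CPM), whereas MT1X in ZnSO4 overlaps between the times and differs in DMSO.

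Heat shock genes went in both directions. SERPINH1 (ENSG00000149257), the collagen chaperone HSP47 of the endoplasmic reticulum, had 31.5, 28.96 and 36.6 CPM in ZnSO4 at 24 h, against 33.5, 34.75 and 33.5 CPM in DMSO. At 6 h it had 132, 161 and 157 CPM in ZnSO4, against 85.0, 81.1 and 63.0 CPM in DMSO. The groups overlapped at 24 h and were apart at 6 h, and its level fell with time in both arms. The effect was −0.08 ± 0.13 at 24 h (adjusted p = 0.8) and 0.97 ± 0.09 at 6 h (adjusted p = 2.6e-12), a difference of −1.05 ± 0.16 (adjusted p = 3.8e-05). It was −0.92 when replicate 3 of DMSO at 6 h was left out.

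HSP90AB1 (ENSG00000096384), the constitutive cytosolic HSP90, differed less, at a far higher count: 6606 ± 162 CPM in ZnSO4 and 6885 ± 64.6 CPM in DMSO at 24 h, and 6058 ± 380 and 5026 ± 95.2 CPM at 6 h. The effects on HSP90AB1 differed by −0.33 ± 0.06 (adjusted p = 0.00079). HSPD1 (ENSG00000144381), the mitochondrial chaperone HSP60, was lower than in DMSO at 24 h and higher at 6 h, with 1068 ± 26.5 against 1189 ± 24 CPM at 24 h and 1697 ± 99.7 against 1469 ± 45 CPM at 6 h. The effects on HSPD1 differed by −0.36 ± 0.07 (adjusted p = 0.0011). HSP90AB3P, a pseudogene of HSP90AB1 that may share its reads, had a difference of −0.37 ± 0.08 (adjusted p = 0.014), called in 7 of 12 fits that left out a library.

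HSPA8 (ENSG00000109971), the constitutive cytosolic HSP70, showed the opposite pattern. It had 1040, 1127 and 1077 CPM in ZnSO4 at 24 h, against 838, 871 and 827 CPM in DMSO, and 2737, 3165 and 2765 CPM in ZnSO4 at 6 h, against 4980, 5040 and 3178 CPM in DMSO. The ZnSO4 libraries lay above all DMSO libraries at 24 h and below all of them at 6 h, when replicate 3 of DMSO was the nearest. The effect was 0.36 ± 0.09 at 24 h (adjusted p = 0.0077) and −0.61 ± 0.09 at 6 h (adjusted p = 1.3e-06), a difference of 0.96 ± 0.13 (adjusted p = 1.4e-06) that was 1.15 without that library. Its level fell 2.67-fold with time in ZnSO4 and 5.20-fold in DMSO. HSPA8P1, a pseudogene of HSPA8 whose reads may come from its parent, had the same pattern at a low level (7.05 ± 0.85 CPM in ZnSO4 and 4.73 ± 1.19 CPM in DMSO at 24 h, and 14.8 ± 1.60 and 23.8 ± 6.44 CPM at 6 h). The effects on HSPA8P1 differed by 1.30 ± 0.32 (adjusted p = 0.037). This call held in 3 of 12 fits that left out a library, with differences of 1.14 to 1.51 over all alternatives.

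DNAJB1, an HSP40 partner of HSPA8, had 86.0 ± 1.38 CPM in ZnSO4 and 68.5 ± 2.14 CPM in DMSO at 24 h, and 185 ± 15.8 and 268 ± 121 CPM at 6 h. The DMSO libraries of 6 h were 335, 341 and 129 CPM, and the difference of 0.86 ± 0.26 was not called (adjusted p = 0.19), whereas without replicate 3 it was 1.19 (adjusted p = 0.000101). HSPA6, a strictly inducible HSP70, was higher in ZnSO4 at both times, with 6.59 ± 3.92 against 1.54 ± 0.58 CPM at 24 h and 26.99 ± 11.6 against 2.60 ± 0.83 CPM at 6 h; its difference of −1.26 ± 0.65 was not called (adjusted p = 0.57). BAG3, an HSP70 cochaperone, had no call for zinc at either time (43.5 ± 5.47 against 43.6 ± 0.70 CPM at 24 h, 27.1 ± 7.42 against 25.4 ± 8.73 CPM at 6 h). HSPA1A and HSPA1B, the classical inducible HSP70 genes, had 1 and 10 counts over the 12 libraries and were not tested; near-identical copies can lose reads in counting. Of 20 genes tested in the list, 1 had a higher and 3 a lower effect at 24 h (0.111% and 0.297% of all genes), with a median difference of −0.24, beside −0.02 over all genes. With ZnSO4, 5 rose and 4 fell at 24 h (3.98% and 5.58% of all genes), and 9 rose and 2 fell at 6 h (4.81% and 4.51%). HSF1 had 174 ± 7.96 CPM in ZnSO4 and 200.4 ± 6.20 CPM in DMSO at 24 h, and 151 ± 9.57 and 164 ± 5.67 CPM at 6 h; it was lower in ZnSO4 at 24 h (adjusted p = 0.014), and the difference was not called (−0.08 ± 0.08, adjusted p = 0.84).

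Several genes with a lower effect at 24 h rose with time in both arms and had a mean in ZnSO4 above that in DMSO at 6 h and below it at 24 h. SGK1 (ENSG00000118515), a kinase of the AKT family that is induced by stress and hormones, had 426, 418 and 406 CPM in ZnSO4 at 24 h, against 468, 449 and 469 CPM in DMSO. At 6 h it had 125, 129 and 132 CPM in ZnSO4, against 74.7, 77.0 and 77.7 CPM in DMSO. The groups did not overlap at either time, with ZnSO4 below DMSO at 24 h and above it at 6 h. The effect was −0.15 ± 0.06 at 24 h (adjusted p = 0.1) and 0.75 ± 0.07 at 6 h (adjusted p = 3.5e-12), a difference of −0.90 ± 0.09 (adjusted p = 9.9e-10).

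KLF6 (ENSG00000067082), a zinc finger factor of the immediate early genes, had 462 ± 23.9 CPM in ZnSO4 and 533 ± 26.5 CPM in DMSO at 24 h, and 67.0 ± 10.8 and 50.7 ± 3.51 CPM at 6 h. Its effect was called at both times in opposite directions (−0.21 ± 0.07 at 24 h and 0.41 ± 0.10 at 6 h; difference −0.61 ± 0.12, adjusted p = 0.0033), and the call of the difference was lost without replicate 3 of ZnSO4 at 6 h (−0.48, adjusted p = 0.09). JUN (ENSG00000177606), a subunit of the factor AP-1, had 325 ± 21 CPM in ZnSO4 and 382 ± 18.5 CPM in DMSO at 24 h, and 44.9 ± 2.003 and 37.9 ± 0.46 CPM at 6 h. The effects on JUN differed by −0.48 ± 0.11 (adjusted p = 0.019). This call was lost without replicate 2 or 3 of ZnSO4 at 24 h, replicate 2 of DMSO at 24 h, or replicate 2 or 3 of either group at 6 h, with differences of −0.53 to −0.44 over all alternatives. Of 20 immediate early genes tested, these were the 2 called for the difference (0.297% of all genes had a lower effect), and the median difference was −0.19. With time, 19 rose in ZnSO4 (28.4% of all genes) and 18 in DMSO (31%), with median log2 changes of 2.11 and 2.54. ZFP36L2, which destabilises AU-rich messages, was not in a list and is named after its values were seen: it had 420 ± 19.4 CPM in ZnSO4 and 506 ± 17.4 CPM in DMSO at 24 h, and 220 ± 0.98 and 183 ± 5.68 CPM at 6 h. The effects on ZFP36L2 differed by −0.54 ± 0.08 (adjusted p = 3.3e-06). ENSG00000006075, an identifier with no symbol in the table used, had 96.7 ± 1.98 CPM in ZnSO4 and 198 ± 16.5 CPM in DMSO at 24 h, and 11.2 ± 1.48 and 9.72 ± 2.23 CPM at 6 h. The effects on ENSG00000006075 differed by −1.22 ± 0.19 (adjusted p = 3.8e-05).

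Of 18 genes of the hypoxia response and glycolysis, 3 had a lower effect at 24 h (0.297% of all genes) and 0 a higher one (0.111%), with a median difference of −0.14. EGLN1 (ENSG00000135766), the oxygen sensor PHD2 that marks HIF for degradation, had 51.3 ± 2.57 CPM in ZnSO4 and 45.7 ± 1.05 CPM in DMSO at 24 h, and 84.3 ± 8.91 and 50.2 ± 1.57 CPM at 6 h. The effects on EGLN1 differed by −0.57 ± 0.11 (adjusted p = 0.0035). BNIP3L (ENSG00000104765), a receptor for the removal of mitochondria, had 144 ± 5.50 CPM in ZnSO4 and 119.5 ± 6.12 CPM in DMSO at 24 h, and 58.3 ± 2.25 and 33.7 ± 2.91 CPM at 6 h. The effects on BNIP3L differed by −0.52 ± 0.11 (adjusted p = 0.006). NDRG1 (ENSG00000104419), a gene induced by low oxygen and by metal chelation, had 963 ± 35.1 CPM in ZnSO4 and 1030 ± 38.7 CPM in DMSO at 24 h, and 307 ± 14.6 and 250.2 ± 20.4 CPM at 6 h. The effects on NDRG1 differed by −0.39 ± 0.07 (adjusted p = 0.0017). All 3 were raised by ZnSO4 at 6 h, and BNIP3L also at 24 h (0.27 ± 0.07, adjusted p = 0.004). In the list, 3 genes rose and 2 fell with ZnSO4 at 24 h (3.98% and 5.58% of all genes), and 9 rose and 1 fell at 6 h (4.81% and 4.51%).

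Of 30 genes tested of the amino acid stress factor ATF4, 1 had a higher and 2 a lower effect at 24 h (0.111% and 0.297% of all genes), with a median difference of −0.04. SESN2 (ENSG00000130766), a leucine-dependent restraint on mTORC1, had 84.3, 91.5 and 94.0 CPM in ZnSO4 at 24 h, against 81.5, 71.8 and 74.5 CPM in DMSO, and 31.9, 30.3 and 33.3 CPM in ZnSO4 at 6 h, against 47.5, 51.8 and 32.9 CPM in DMSO. The groups were apart at 24 h, and at 6 h replicate 3 of DMSO fell among the ZnSO4 libraries. The difference was 0.71 ± 0.15 (adjusted p = 0.0059), 0.88 without that library, and no longer called without replicate 2 of the same group (adjusted p = 0.073). PSAT1, of serine synthesis, had 125 ± 4.22 CPM in ZnSO4 and 129 ± 3.37 CPM in DMSO at 24 h, and 269 ± 14.3 and 214 ± 11.9 CPM at 6 h. The effects on PSAT1 differed by −0.38 ± 0.08 (adjusted p = 0.012), and the call was lost without replicate 2 of ZnSO4 at 24 h, replicate 1 of DMSO at 24 h or replicate 3 of DMSO at 6 h (−0.35, −0.37 and −0.34). SLC3A2, a chain of amino acid transporters, had a difference of −0.28 ± 0.07 (adjusted p = 0.048), and AARS1, the alanyl-tRNA synthetase gene, a difference of −0.31 ± 0.08 (adjusted p = 0.048). Close to the threshold, these calls held in 2 and 3 of 12 fits that left out a library. AARS1 was the 1 gene called among 20 tRNA synthetases (0.297% of all genes had a lower effect).

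ATF4 itself had 938 ± 18.1 CPM in ZnSO4 and 927 ± 35.9 CPM in DMSO at 24 h, and 409 ± 25.1 and 412 ± 30.8 CPM at 6 h, with a difference of 0.03 ± 0.07 (adjusted p = 0.96). Its targets DDIT3 and ATF3, both stress transcription factor genes, rose with time in both arms. DDIT3 was raised by ZnSO4 at 24 h (49.0 ± 5.09 against 33.4 ± 2.55 CPM; 0.56 ± 0.10, adjusted p = 4.7e-05) and had 6.02 ± 0.74 against 5.12 ± 0.90 CPM at 6 h, with a difference of 0.33 ± 0.23 (adjusted p = 0.74). ATF3 was lower with ZnSO4 at 24 h (92.3 ± 11.5 against 112 ± 5.10 CPM; −0.27 ± 0.09, adjusted p = 0.038) and had 10.4 ± 1.37 against 8.93 ± 2.39 CPM at 6 h. The difference for ATF3, −0.49 ± 0.20, was not called (adjusted p = 0.43). CHAC1, a glutathione-degrading enzyme gene, had 2.42 ± 1.39 CPM in ZnSO4 and 1.81 ± 0.09 CPM in DMSO at 24 h, and 20.8 ± 3.83 and 40.4 ± 18.8 CPM at 6 h; its difference of 1.37 ± 0.71 was not called (adjusted p = 0.58). TRIB3, a pseudokinase gene, and ASNS, the asparagine synthetase gene, had no called difference (−0.18 ± 0.10 and −0.23 ± 0.11, adjusted p = 0.6 and 0.55).

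MCL1 (ENSG00000143384), an antiapoptotic member of the BCL2 family on which myeloma cells depend, was raised by ZnSO4 at 24 h and had no call at 6 h. It had 1218, 1254 and 1309 CPM in ZnSO4 at 24 h, against 809.5, 789 and 767 CPM in DMSO, and 547, 558 and 574 CPM in ZnSO4 at 6 h, against 518, 552 and 534 CPM in DMSO. The groups were far apart at 24 h and overlapped at 6 h. The effect was 0.68 ± 0.05 at 24 h (adjusted p = 4.6e-18) and 0.07 ± 0.05 at 6 h (adjusted p = 0.46), a difference of 0.61 ± 0.07 (adjusted p = 4.2e-09). Of 14 BCL2 family genes it was the only 1 called for the difference (0.111% of all genes had a higher effect). The proapoptotic genes PMAIP1 and BBC3 rose with time in both arms; PMAIP1 had 295 ± 17.7 CPM in ZnSO4 and 256 ± 15.5 CPM in DMSO at 24 h, and 93.3 ± 8.57 and 103 ± 12.5 CPM at 6 h (difference 0.35 ± 0.10, adjusted p = 0.16). Leaving out replicate 3 of DMSO at 6 h gave 0.44 and an adjusted p of 0.0278. The difference for BBC3, −0.04 ± 0.21, was not called (adjusted p = 0.98).

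SKI (ENSG00000157933), a corepressor of TGF-beta signalling, had 25.02, 31.5 and 30.2 CPM in ZnSO4 at 24 h, against 15.3, 13.4 and 15.65 CPM in DMSO, and 57.6, 56.2 and 62.8 CPM in ZnSO4 at 6 h, against 61.0, 49.1 and 47.2 CPM in DMSO. It fell with time in both arms, less in ZnSO4, and the effect was 0.98 ± 0.12 at 24 h and 0.17 ± 0.08 at 6 h (difference 0.81 ± 0.15, adjusted p = 0.00078). ZNF302 rose with ZnSO4 at both times and more at 24 h (45.5 ± 2.18 against 24.5 ± 0.79 CPM at 24 h, 60.4 ± 2.77 against 48.9 ± 1.64 CPM at 6 h). The effects on ZNF302 differed by 0.59 ± 0.12 (adjusted p = 0.0032). ZNF222, another KRAB zinc finger gene, was higher in ZnSO4 at 24 h and lower at 6 h (15.9 ± 0.63 against 11.2 ± 0.33 CPM and 5.39 ± 0.08 against 8.53 ± 0.78 CPM; difference 1.16 ± 0.24, adjusted p = 0.0059). MDM2, the ubiquitin ligase of p53, was the only 1 of 17 p53 targets called for the difference, beside 0.111% of all genes (0.50 ± 0.11, adjusted p = 0.0089; adjusted p = 0.056 without the filter on low counts). It stood at 69.5 ± 3.26 CPM in ZnSO4 and 62.2 ± 3.31 CPM in DMSO at 24 h, and 40.5 ± 1.49 and 51.3 ± 1.36 CPM at 6 h.

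The remaining genes named by rule among those with a higher effect at 24 h were ARHGAP35, a GTPase-activating protein, PIK3R4, a subunit of the lipid kinase VPS34, the noncoding HCG11, and SAMD9L, an interferon-induced gene. Their differences ran from 0.53 (SAMD9L) to 0.58 (ARHGAP35), with adjusted p of 0.012 to 0.024. In fits that left out a library they were called in 8 (SAMD9L), 7 (HCG11), 8 (PIK3R4) and 5 (ARHGAP35) of 12. All 4 fell with time in both arms. For SAMD9L the effect was −0.00 ± 0.10 at 24 h (adjusted p = 0.99) and −0.54 ± 0.07 at 6 h (adjusted p = 1.4e-08), with 42.4 ± 1.90 CPM in ZnSO4 and 42.5 ± 3.58 CPM in DMSO at 24 h, and 127 ± 9.78 and 184.5 ± 14.6 CPM at 6 h.

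**Figure D3:**
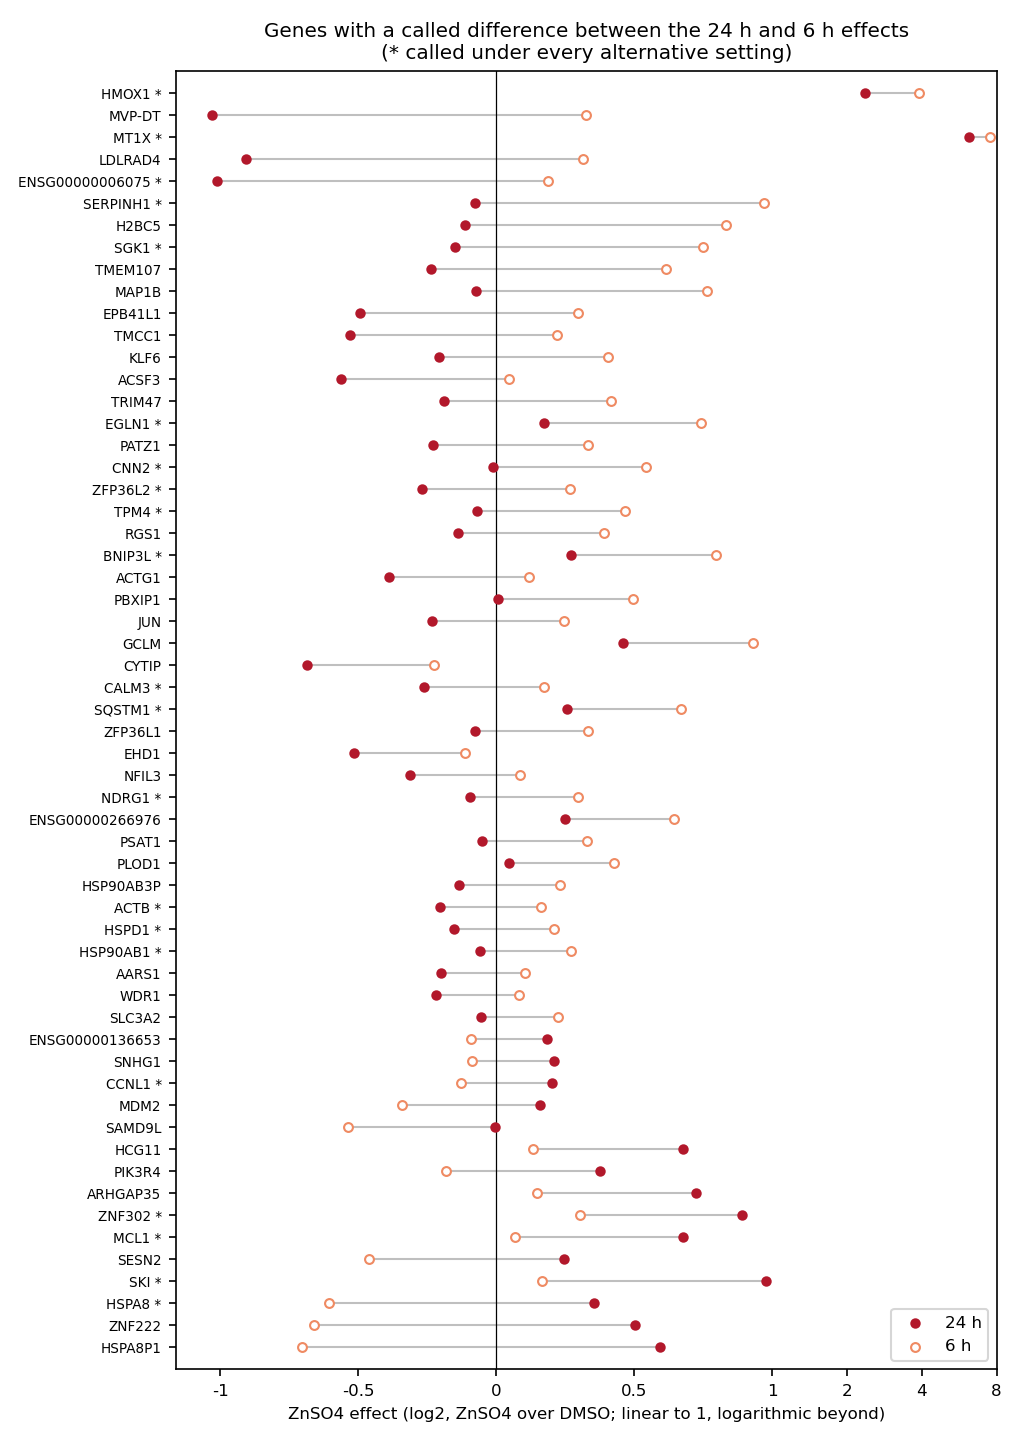
Log2 effect of ZnSO4 over DMSO at 24 h (filled) and 6 h (open) for 58 of the 59 genes with a called difference, ordered by its size; the axis is linear to 1 and logarithmic beyond, and an asterisk marks the 21 of these called under all 17 alternative settings. For the 43 genes with a lower effect the filled point lies left of the open one, and for 32 of them the effects have opposite signs. Choosing genes by the difference favours opposite signs.

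Further genes are named here after their values were seen, most of them because they were called under all 17 alternatives. TPM4, a tropomyosin gene, had 439, 443 and 441 CPM in ZnSO4 at 24 h, against 465, 463 and 462 CPM in DMSO, and 474, 495 and 489 CPM in ZnSO4 at 6 h, against 346, 334 and 376 CPM in DMSO. The groups did not overlap at either time, with ZnSO4 slightly below DMSO at 24 h and well above it at 6 h (difference −0.54 ± 0.07, adjusted p = 2.5e-07). ACTB, beta-actin, had 2779 ± 128 CPM in ZnSO4 and 3202 ± 131 CPM in DMSO at 24 h, and 3023 ± 99.1 and 2704 ± 189 CPM at 6 h. The effects on ACTB differed by −0.37 ± 0.07 (adjusted p = 0.0024); its close relative ACTG1, with which it may share reads, differed by −0.51 ± 0.11 (adjusted p = 0.015), and was called in 12 of the 17 alternatives. For ACTG1 the difference was −0.72 without replicate 3 of DMSO at 6 h. The ACTG1 call was lost with DESeq2 (−0.49, adjusted p = 0.128) and without replicate 1 or 2 of DMSO at 6 h, replicate 3 of DMSO at 24 h or replicate 2 of ZnSO4 at 24 h (−0.46 to −0.41, adjusted p of 0.085 to 0.127). CNN2, a calponin gene, differed by −0.55 ± 0.11 (adjusted p = 0.0038) and CALM3, a calmodulin gene, by −0.44 ± 0.09 (adjusted p = 0.0045). CCNL1, a cyclin of splicing regulation, was higher in ZnSO4 at 24 h (1498 ± 35.5 against 1303 ± 7.49 CPM) and had 281 ± 10.6 against 307 ± 15.3 CPM at 6 h. The effects on CCNL1 differed by 0.33 ± 0.07 (adjusted p = 0.0056).

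The other genes named by rule with a lower effect at 24 h each lost their call in at least 1 fit that left out a library. MVP-DT, an RNA divergent to MVP whose reads cannot be told from those of an overlapping gene because the strand setting is not given, had 3.58 ± 1.10 CPM in ZnSO4 and 7.597 ± 0.23 CPM in DMSO at 24 h, and 7.22 ± 0.89 and 5.81 ± 0.25 CPM at 6 h. The effects on MVP-DT differed by −1.40 ± 0.34 (adjusted p = 0.03); it was called in 2 of 12 fits that left out a library. LDLRAD4, an inhibitor of TGF-beta signalling, had 5.12 ± 0.97 CPM in ZnSO4 and 9.71 ± 0.59 CPM in DMSO at 24 h, and 9.16 ± 0.83 and 7.37 ± 0.87 CPM at 6 h. The effects on LDLRAD4 differed by −1.22 ± 0.27 (adjusted p = 0.012). The histone gene H2BC5 and the ciliary gene TMEM107 had differences of −0.95 ± 0.23 and −0.85 ± 0.18 (adjusted p = 0.031 and 0.0092), and MAP1B, EPB41L1 and TMCC1, of the cytoskeleton and the endoplasmic reticulum, −0.84 ± 0.19, −0.79 ± 0.20 and −0.75 ± 0.18 (adjusted p = 0.02, 0.043 and 0.024). In the 12 fits that left out a library, calls held in 11 for LDLRAD4, 10 for TMEM107, 8 for MAP1B, 7 for TMCC1, 4 for EPB41L1 and 2 for H2BC5. MVP-DT, H2BC5, TMEM107 and TMCC1 were no longer called without replicate 3 of DMSO at 6 h. Over all 59 genes, 42 remained called without that library, among 54 calls in all.

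The libraries of 1 and 3 h, which do not enter the difference, place these genes in time. HMOX1 in ZnSO4 averaged 234 ± 15.1, 2393 ± 217, 1168 ± 213 and 562 ± 36.7 CPM at 1, 3, 6 and 24 h, so its level was highest at 3 h. SERPINH1 in ZnSO4 averaged 85.6 ± 0.34, 301 ± 45.3, 149.9 ± 15.9 and 32.4 ± 3.89 CPM, and HSPA8 averaged 4632 ± 250, 7812 ± 636, 2889 ± 239 and 1081 ± 43.6 CPM. HSPA8 in DMSO averaged 3277 ± 653, 4401 ± 54.4, 4400 ± 1058 and 845 ± 22.6 CPM, so the mean in ZnSO4 was above that in DMSO at 1, 3 and 24 h and below it at 6 h. SLC30A1 in ZnSO4 averaged 359 ± 1.23, 573 ± 52.1, 269 ± 22.2 and 596 ± 33.6 CPM, lowest at 6 h. MT1X in ZnSO4 averaged 293 ± 24.5, 1272 ± 112, 1287 ± 134 and 1340 ± 164 CPM. At 3 h the mean of ZnSO4 was above that of DMSO in 35 of the 43 genes with a lower effect at 24 h (81.4%) and in 12 of the 16 with a higher one (75%), beside 50.6% of all genes. At 1 h it was so in 26 of 43 (60.5%) and 12 of 16, beside 50.2% of all genes. Choosing genes by a lower effect at 24 h favours those raised at 6 h (41 of the 43). The shares at 1 and 3 h thus describe the chosen genes and are no separate result.

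**Figure D4:**
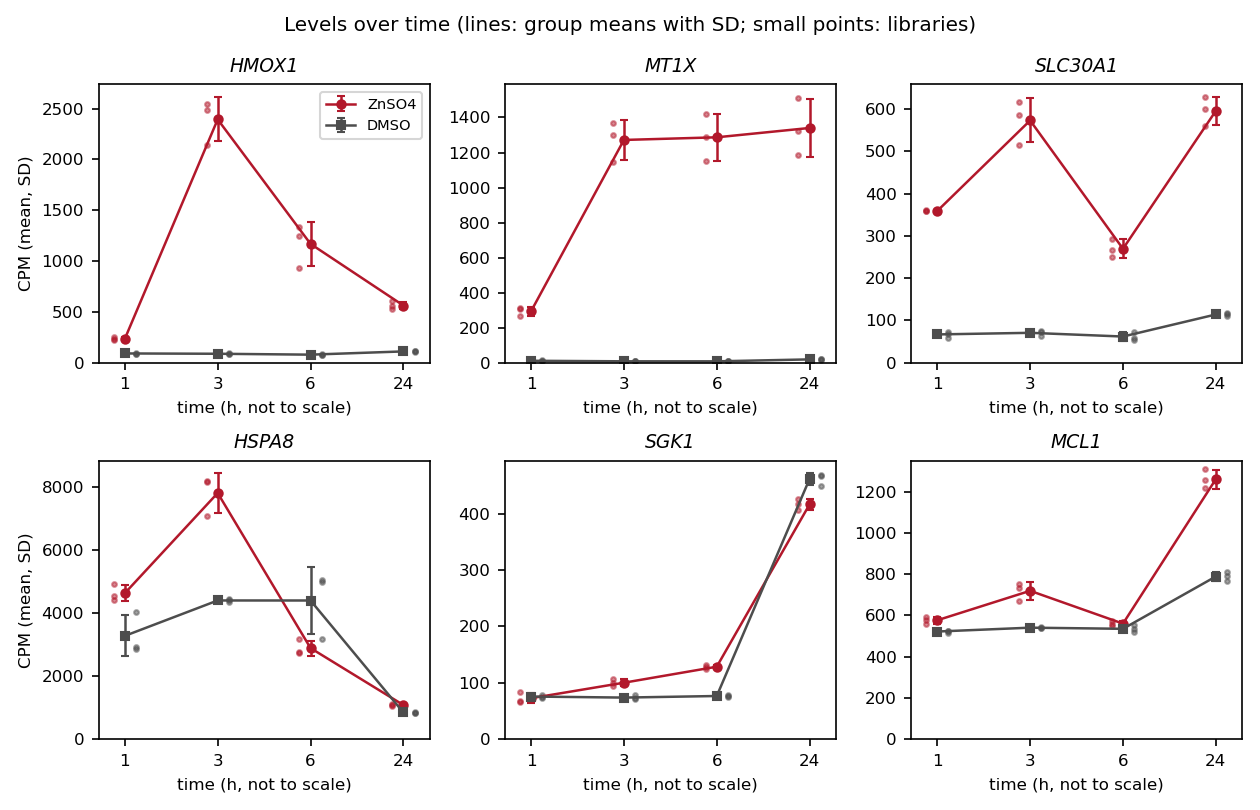
Mean level in CPM with SD (lines) and each library (small points) of 6 genes at 1, 3, 6 and 24 h in ZnSO4 and in DMSO; the time axis is not to scale. HMOX1 is highest at 3 h (2393 CPM) and SLC30A1 dips at 6 h (269 CPM), while SGK1 and MCL1 rise between 6 and 24 h in both arms.

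Genes of growth and of plasma cell identity with a call for zinc at 24 h or 6 h were lower in ZnSO4. Of the genes in these lists 0 had a called difference, beside 0.408% of all genes. Of 23 genes of MYC and ribosome biogenesis, 13 fell at 24 h (5.58% of all genes) and 14 at 6 h (4.51%) and 0 rose (3.98% and 4.81%), with a median difference of −0.00. MYC, the growth-promoting oncogene, had 979.5 ± 50.3 CPM in ZnSO4 and 1347 ± 58.6 CPM in DMSO at 24 h, and 729 ± 45 and 947 ± 183 CPM at 6 h. The difference for MYC, −0.08 ± 0.13, was not called (adjusted p = 0.91). NCL, the nucleolar protein nucleolin, fell to 2774 ± 79.1 CPM in ZnSO4, against 3194 ± 29.4 CPM in DMSO at 24 h, and to 1729 ± 45 CPM against 2155 ± 49.3 CPM at 6 h. The difference for NCL, 0.11 ± 0.07, was not called (adjusted p = 0.67). Of 17 plasma cell genes tested, 8 fell at 24 h and 9 at 6 h and 0 rose, beside the same shares of all genes. IRF4, the factor that myeloma cells depend on, had 1057 ± 121 CPM in ZnSO4 and 1332 ± 56.9 CPM in DMSO at 24 h, and 678 ± 25.2 and 786 ± 15.4 CPM at 6 h. The difference for IRF4, −0.12 ± 0.08, was not called (adjusted p = 0.74). PRDM1, the plasma cell factor BLIMP1, had no called difference (0.05 ± 0.09, adjusted p = 0.93).

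**Figure D5:**
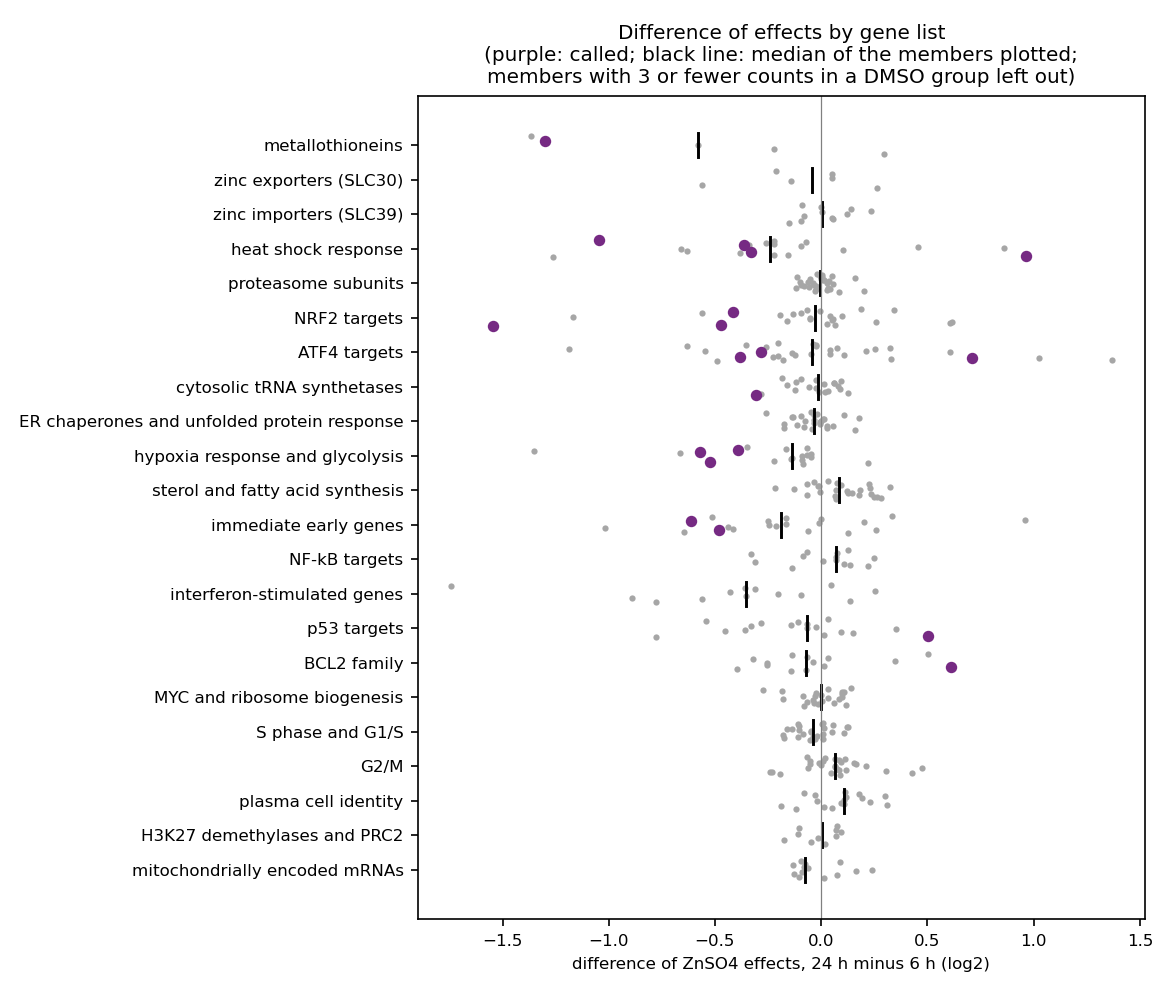
Difference of the ZnSO4 effects (24 h minus 6 h, log2) for the tested members of 22 gene lists (points; purple where called) and their median (black line); members with 3 or fewer counts in a DMSO group are left out. The called genes lie in 9 lists, and the medians of the proteasome list (−0.00) and of the MYC and ribosome list lie close to 0.

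The other lists held 0 genes with a called difference: 30 proteasome subunits, 26 ER chaperone and unfolded protein response genes, 26 sterol and fatty acid genes, 14 NF-kB targets, 13 interferon-stimulated genes, 25 S phase genes, 28 G2/M genes, 10 genes of H3K27 demethylases and PRC2, and 13 mitochondrially encoded mRNAs. Over all genes 0.408% had a called difference, so 0 calls in a list of such a size does not set it apart. Of the ER genes, 10 fell with ZnSO4 at 24 h (5.58% of all genes), and at 6 h 9 fell (4.51%) and 1 rose (4.81%); of the tRNA synthetases, 10 fell at 24 h and 8 at 6 h. The proteasome had 0 calls for zinc at either time. CCNB1, cyclin B1, had no called difference (0.09 ± 0.17, adjusted p = 0.93), and CDKN1A, the cell cycle inhibitor p21, rose at both times (14.75 ± 0.68 against 8.76 ± 0.56 CPM at 24 h, 9.475 ± 1.96 against 3.205 ± 0.80 CPM at 6 h) with a difference of −0.78 ± 0.31 that was not called (adjusted p = 0.39). KDM6A and KDM6B, the H3K27 demethylases that the study's other compound inhibits, had no call for zinc at either time or for the difference (0.02 ± 0.15 and −0.05 ± 0.24, adjusted p = 0.99 and 0.98). The smallest called difference was 0.28 in size.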

How the data were processed

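RNA of JJN3 cells was sequenced from 39 libraries made with the NEBNext Ultra RNA kit, per the labels' protocols. Per the submitters' processing notes, the authors used HISAT2 2.1.0 and hg19. Which program counted the reads, on which annotation and whether by strand, was not given in the sources. Whole-number read counts, not normalized, were deposited for 57773 Ensembl identifiers, of which 39538 have a symbol in the name table used. The sample groups follow the labels, 13 groups of 3; replicates are numbered by order, and 0 columns were left unmapped. Counts of all 39 libraries were fitted with edgeR 4.0.16 in R 4.3.3 (TMM scaling, genes kept by filterByExpr at minimum count 10, a mean for each group, 26 residual degrees of freedom, prior count 0.125), and quasi-likelihood F-tests were made for the difference of effects, each effect, and 24 h against 6 h within each arm. The biological coefficient of variation was 4.8%. Standard errors are the log2 value over the square root of F, and folds are 2 to the power of the size of the log2 value. Alternatives were DESeq2 1.42.0, the 12 libraries by themselves, scaling by RLE or by library totals, testing all genes, a prior count of 2 and leaving out each library. The fit was tested on simulated data with 14323 genes and 200 changed in the difference. It recovered 59.6% of the 57 with a 1.5-fold change, 82.4% of the 74 with a 2-fold change and 97.1% of the 69 with a 4-fold change. Of 175 calls, 13 (7.43%) fell on unchanged genes. The changed genes were drawn from those above 2 CPM in DMSO at both times, and no simulated library was made to stand apart. Recovery at lower levels or with uneven replicates was not tested. Named genes are the 12 largest called differences in each direction with an average log2 CPM of at least 1 and a symbol (immunoglobulin genes left out), a fixed set of stress, zinc and identity genes, and up to 4 called members of each of 23 lists. Of 472 list entries 469 matched an identifier (PSMB3, ACACA and DDX58 did not) and 424 were tested. The members and lists were chosen with earlier results of these data known. A count of 0 allows 0.388 to 0.75 CPM in these libraries (3 counts). For 1 of the called genes no result is reported here.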

Additional observations from a re-analysis of the deposited data

Results flagged for a closer look

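For 35 named genes the effect of ZnSO4 at 24 h differed from that at 6 h by the test of the difference itself (edgeR, adjusted p under 0.05), and their log2 differences, 24 h minus 6 h, are gathered here. Of zinc and stress response genes, the effect was lower at 24 h for HMOX1 (−1.55), MT1X (−1.30), SERPINH1 (−1.05), GCLM (−0.47), SQSTM1 (−0.42), HSPD1 (−0.36) and HSP90AB1 (−0.33). It was also lower for the hypoxia genes EGLN1 (−0.57), BNIP3L (−0.52) and NDRG1 (−0.39), the early genes KLF6 (−0.61) and JUN (−0.48), and the amino acid genes PSAT1 (−0.38), AARS1 (−0.31) and SLC3A2 (−0.28). Outside the lists it was lower for MVP-DT (−1.40), LDLRAD4 (−1.22), H2BC5 (−0.95), SGK1 (−0.90), TMEM107 (−0.85), MAP1B (−0.84), EPB41L1 (−0.79) and TMCC1 (−0.75). The effect was higher at 24 h for HSPA8P1 (1.30), HSPA8 (0.96), SESN2 (0.71), MCL1 (0.61) and MDM2 (0.50), and for ZNF222 (1.16), SKI (0.81), ZNF302 (0.59), ARHGAP35 (0.58), PIK3R4 (0.56), HCG11 (0.54) and SAMD9L (0.53). These are 35 of the 59 genes called, chosen by the naming rule, which takes the largest differences, a fixed set of genes and called members of the lists. Of the 59, 25 were called in all 12 fits that left out a library. The call held in only 2 of the 12 for MVP-DT, H2BC5 and SLC3A2, and in 3 for AARS1 and HSPA8P1. For EPB41L1 it held in 4, and for JUN and ARHGAP35 in 5. Reads of HSPA8P1 may come from HSPA8.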

How the results depend on the processing

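No called difference changed direction under any of the 17 alternatives (the prior count of 2, which changes no test, is not among them), and 22 of the 59 genes were called under all of them, HMOX1, MT1X, SERPINH1, SGK1, HSPA8, MCL1 and SKI included. The number of genes with a called difference was 50 with RLE size factors or library totals, 59 without the filter (45 of the same genes), 53 with only the 12 libraries, and 61 with DESeq2 (8012 genes with an adjusted p; 25 higher, 36 lower, so 41% higher against 27.1%; 51 of the same genes). Leaving out each library gave 37 to 61 calls, with 35 to 50 of the 59 genes kept: 37 (10 higher, 27 lower) without replicate 2 of ZnSO4 at 24 h, and 39 (11 higher, 28 lower) without replicate 2 of DMSO at 6 h. Across these fits the higher calls ran from 10 to 22 and the lower from 27 to 45; the lower numbered 28 without replicate 2 of DMSO at 24 h. For the effect at 24 h the fits without a library gave 809 to 1432 calls (321 to 579 higher, 488 to 853 lower), the lowest without replicate 2 of ZnSO4 at 24 h. For the effect at 6 h they gave 876 to 1380 (446 to 676 higher, 427 to 704 lower), the lowest without replicate 3 of ZnSO4 at 6 h and, for the lower calls, without replicate 3 of DMSO at 6 h. Without the filter, 324 genes rose at 24 h and 426 at 6 h, with 45074 genes tested. With library totals alone, 2576 genes were higher and 6201 lower at 24 h than at 6 h within ZnSO4, and 2760 higher and 6339 lower within DMSO, beside 4107 and 4558, and 4477 and 4594; the effect at 24 h then split into 676 higher and 644 lower, beside 575 and 807. The cause of these shifts was not tested. MT2A was called without the filter, SLC7A11 with DESeq2 and without replicate 3 of DMSO at 24 h, and DNAJB1 without the filter and without replicate 3 of DMSO at 6 h. No paired analysis was possible because the labels give no replicate numbers; those used here only name the libraries. In the simulated data 59.6% of the 1.5-fold changes, all in genes above 2 CPM in DMSO, were called, so a gene without a call may still differ.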
